A study of Oryctolagus cuniculus with 134 samples.

Results

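The genes of intracellular cholesterol transport and storage were followed across the proximal aorta and 4 heart valves of rabbits on lipid-rich diets, with and without cardiac irradiation. The set holds 8 genes, taken by their symbols from the 29587 genes that the deposited tables list, and each symbol was found on 1 gene. They are LIPA (ENSOCUG00000001553), NPC2 (ENSOCUG00000014067), NPC1 (ENSOCUG00000009850), SOAT1 (ENSOCUG00000008204), STARD3 (ENSOCUG00000013005), STARD4 (ENSOCUG00000006422), STARD5 (ENSOCUG00000010395) and STAR (ENSOCUG00000002507). The rule used the gene symbols alone, though the set was drawn up with earlier results of these data known.

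Cells take up cholesteryl esters inside lipoproteins, and in the lysosome the acid lipase LIPA hydrolyses them to free cholesterol. The small luminal protein NPC2 hands this cholesterol to the membrane protein NPC1, which exports it to other membranes. At the endoplasmic reticulum SOAT1 re-esterifies excess cholesterol for storage in lipid droplets, the process that gives foam cells of atherosclerotic lesions their appearance. Proteins with a START domain carry sterol through the cytosol or across membrane contacts: STARD3 sits in late endosomes, STARD4 and STARD5 are soluble, and STAR brings cholesterol to the inner mitochondrial membrane.

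RNA of 5 tissues was sequenced from 27 male New Zealand White rabbits, 1 library per tissue sample. The aorta, both left-sided valves (aortic and mitral) and both right-sided valves (pulmonary and tricuspid) each had 7 Ctrl, 6 CHT, 7 Lard and 7 IR/CHT libraries, except for 6 Ctrl libraries in the mitral valve. Ctrl rabbits ate standard chow, CHT rabbits a diet with 0.3% cholesterol, Lard rabbits a diet with 5% lard, and IR/CHT rabbits the cholesterol diet with X-ray irradiation. The protocol began at 12 weeks of age and lasted 16 weeks. CHT, Lard and IR/CHT rabbits also drank 25000 U of vitamin D2 per day, scaled to body weight, during the first 15 days, which the Ctrl rabbits did not, so that diet and vitamin D2 cannot be told apart in comparisons with Ctrl. After 8 weeks of diet the irradiation of the IR/CHT group was given as 3 doses of 8 Gy, 24 Gy in all, aimed at the aortic valve and the thoracic aorta. The groups of the study given vitamin D2 or irradiation alone have no libraries in this series. Whole rings and whole valves were taken, so that the values mix all cells of a tissue, and a change in the number of cells of a type cannot be told apart from a change in the RNA of each cell.

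The count tables summed to 13564979 to 50577676 per library (median 18235577). Levels are given in CPM, counts scaled by library size (TMM), as mean ± SD, and they are not compared between genes because they were not divided by gene length. STARD4 had the fewest counts, 10 in its lowest library, and at 10 counts sampling alone gives an SD of 31.6% of the level. The other 7 genes had at least 68 counts in every library. The aorta libraries were all on plate 2 and the CHT libraries of the aortic and mitral valve were all on plate 1, while the other groups were on both plates. By the correlation of their expression profile, 14 libraries were closest to a group of another tissue, in 5 of them by more than 0.01 and all of these from right-sided valves. These 5, called libraries that stand apart, were pulmonary Lard L271 and IR/CHT L275 and tricuspid Ctrl L168, Lard L272 and IR/CHT L197. Calls that changed without them, and the correlations in the right-sided valves, are given with and without them. Group levels, marker sums and the patterns over group means include them. Smooth muscle markers were far higher in the aorta (a summed level of 101744 ± 11726 CPM in Ctrl) than in the valves (at most 1392 ± 273.3 in Ctrl). Of the pulmonary IR/CHT libraries, L176 had a sum of 21116 CPM and the next highest, L238, 2586 CPM. Heart muscle markers were present in every tissue, and their sum on Ctrl ranged from 620 to 43526 CPM in the tricuspid valve and from 41.4 to 5672 CPM in the pulmonary valve. The lowest tricuspid value was that of L168, and without it the range began at 8884 CPM (L264).

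**Figure D1:**
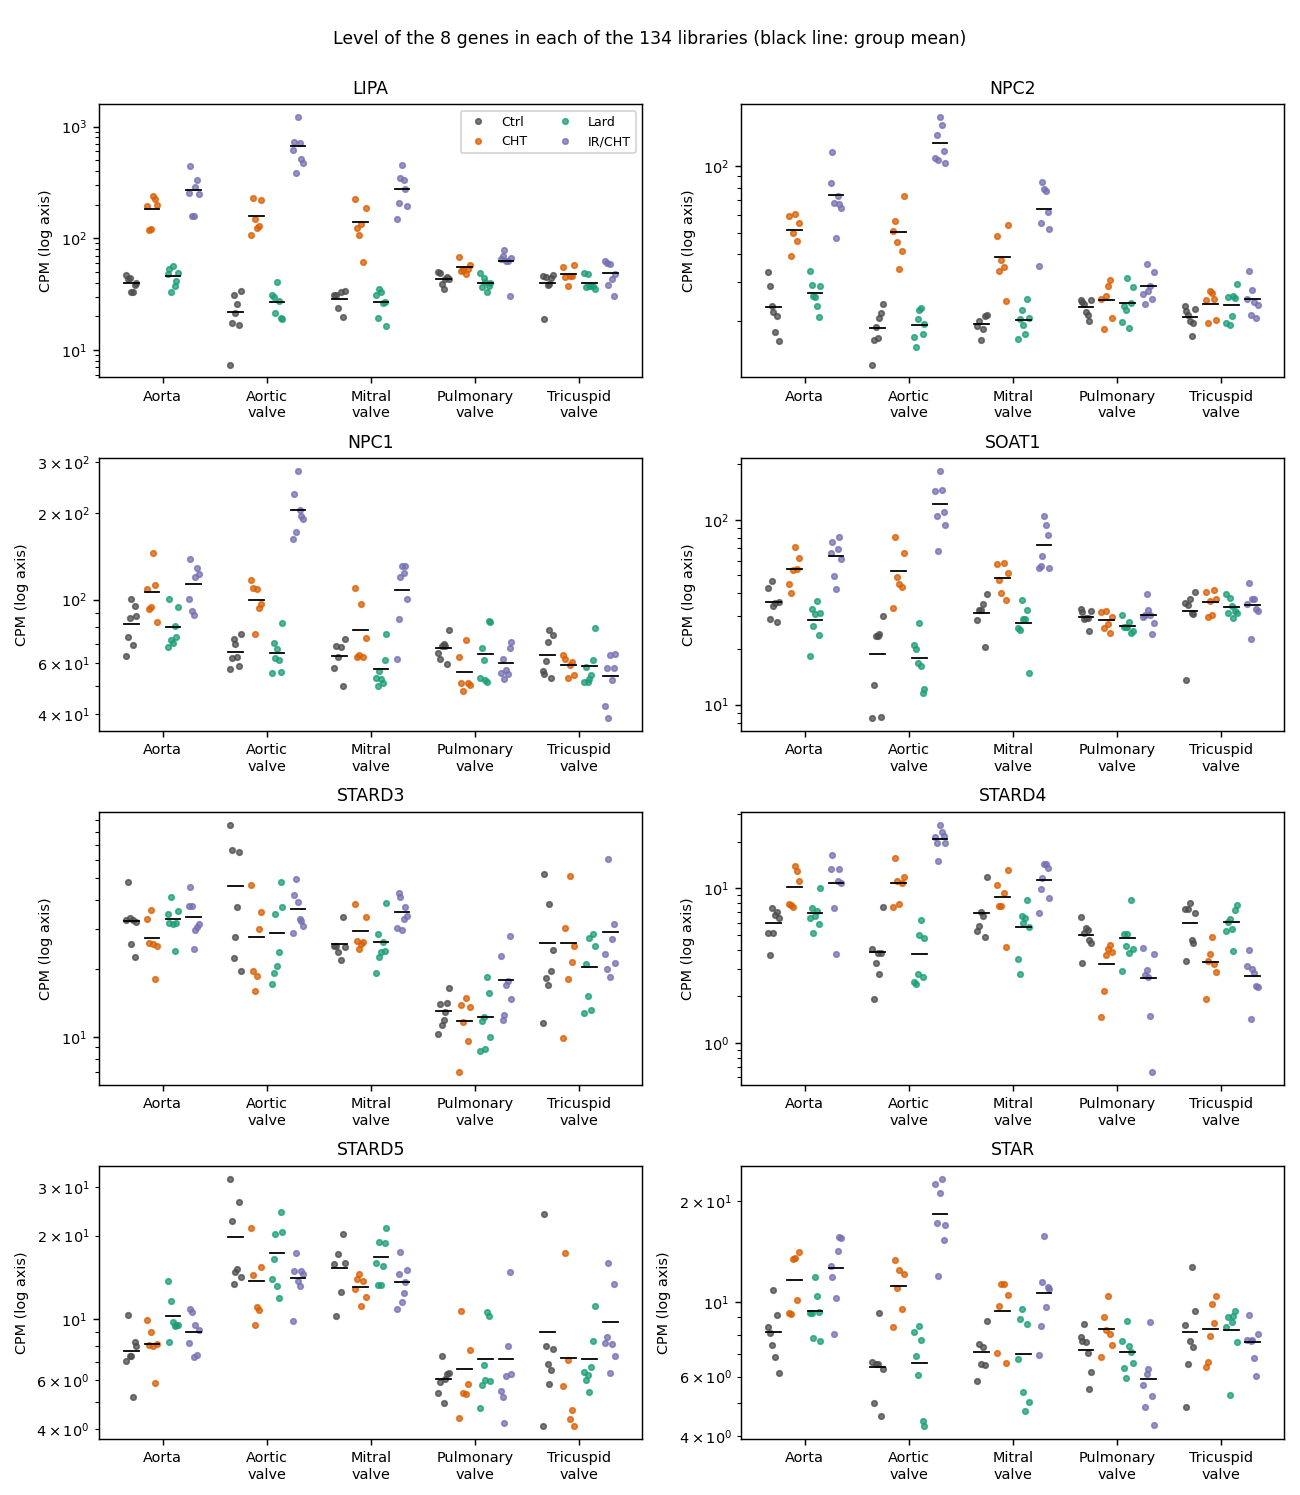
Level of each of the 8 genes in each library, in CPM on a log axis, for the 5 tissues on the x axis and the 4 treatments by colour, with a black line at each group mean. LIPA reaches 1223 CPM in 1 IR/CHT library of the aortic valve, and stays between 19.1 and 78.4 CPM in all libraries of the pulmonary and tricuspid valve. The lowest of these is tricuspid Ctrl L168, which stands apart, and the next lowest is tricuspid IR/CHT L276 at 30.4 CPM.

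The question of the treatment comparisons was which of these genes each diet changed and whether irradiation added to the cholesterol diet. In the aorta and the left-sided valves the cholesterol diet raised the lysosomal genes LIPA and NPC2 in every tissue, and SOAT1, STARD4, STAR and NPC1 in some. In the right-sided valves none of these rises was called, and the change of largest size was a fall of STARD4. A gene was called where the adjusted p-value (edgeR's quasi-likelihood test, Benjamini-Hochberg over all genes tested in the tissue) was under 0.05 and the fold change over 1.5. CHT raised 4 of the 8 genes against Ctrl in the aorta, beside 19.4% of all tested genes called in either direction. It raised 6 of 8 in the aortic valve (11.9% of all genes) and 2 of 8 in the mitral valve (5.62% of all genes). In the pulmonary valve 0 of 8 were called (0.159% of all genes), with 3 at an unadjusted p under 0.05 and 0 called by DESeq2. In the tricuspid valve 0 of 8 were called as well (0.163% of all genes), with 1 at an unadjusted p under 0.05 and 0 by DESeq2. The median log2 fold change of the 8 genes was 0.58 in the aorta, 1.12 and 0.37 in the aortic and mitral valve, and 0.00 and -0.02 in the pulmonary and tricuspid valve, beside medians over all tested genes between -0.05 and 0.00.

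With irradiation added, more of the genes were called against Ctrl in the aorta and the mitral valve and the changes in the aortic valve were larger. In the aorta CHT called 5 of 8 too without Ctrl L568, CHT L559 or CHT L560. IR/CHT raised 5 of 8 genes against Ctrl in the aorta (34.3% of all genes called), 6 of 8 in the aortic valve (42.8%) and 4 of 8 in the mitral valve (17.7%). For the pulmonary valve 0 of 8 were called (0.706%), with 4 at an unadjusted p under 0.05 and 1, STARD4, called by DESeq2. In the tricuspid valve 1 of 8 fell (0.231%). The direct comparison of IR/CHT with CHT called 6 of 8 genes in the aortic valve, all higher with irradiation, where 19.7% of all genes were called. The same comparison called 0 of 8 in the aorta (0.596% of all genes), with 2 at an unadjusted p under 0.05 and 0 by DESeq2, and 0 of 8 in the mitral valve (0.189%), with 4 at an unadjusted p under 0.05 and 2, LIPA and NPC2, by DESeq2. For the pulmonary valve it called 0 of 8 (0.0761%), with 2 at an unadjusted p under 0.05 and 1, STARD3, by DESeq2, and in the tricuspid valve 0 of 8 (0% of all genes), with 0 at an unadjusted p under 0.05 and 0 by DESeq2. All 8 estimates of IR/CHT against CHT were above 0 in the aorta and in both left-sided valves. The comparisons with Ctrl share the Ctrl libraries, and those with CHT share the CHT libraries.

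The lard diet called 0 of the 8 genes against Ctrl in each of the 5 tissues. Of all tested genes it called 2.61% in the aorta, 0.234% in the aortic valve and 0% in the mitral, pulmonary and tricuspid valves. Over the 40 values of 8 genes in 5 tissues the log2 fold change lay between -0.69 and 0.43, the smallest adjusted p-value was 0.152 (STARD5 in the aorta), 2 had an unadjusted p under 0.05 and DESeq2 called 0. Set against CHT, which shares the vitamin D2, Lard was lower for LIPA, NPC2 and SOAT1 in the aorta (3 of 8 called, 9.35% of all genes) and the mitral valve (3 of 8, 6.05%). In the aortic valve it was lower for 6 of 8 (7.94% of all genes). Of these NPC1 was lost without CHT L151 (-0.56), CHT L228 (-0.58) or Lard L269 (-0.58), and with the plate as a covariate NPC1 (-0.57) and STAR (-0.58) were lost. In plate 1 alone NPC1 (-0.59), STAR (-0.46) and SOAT1 (-1.17) were lost. In the mitral valve STARD4 was lower as well without CHT L245 (-0.80, adjusted p = 0.0494), and in plate 1 alone NPC2 (-0.9997 against -0.93 with all libraries, adjusted p = 0.0674) and SOAT1 (-0.66) were lost. In the pulmonary valve (0.152% of all genes) and the tricuspid valve (0.0884%) 0 of 8 were called in this comparison, with 1 at an unadjusted p under 0.05 in each (LIPA and STARD4) and 0 by DESeq2.

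**Figure D2:**
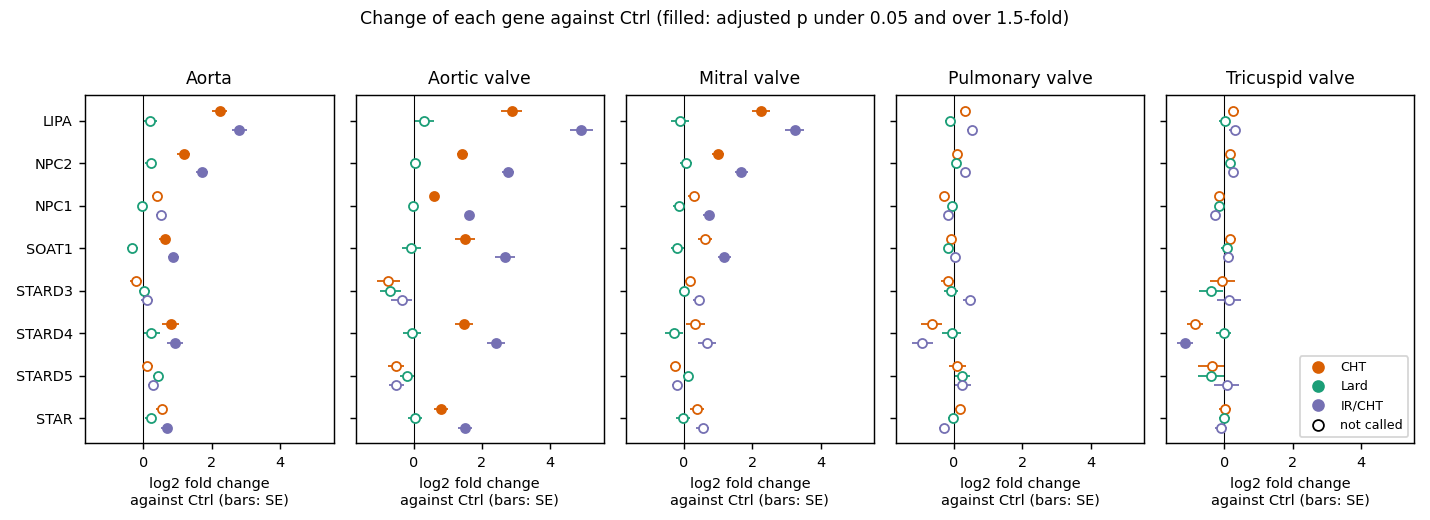
Log2 fold change of each gene against Ctrl on CHT, Lard and IR/CHT (colours) in the 5 tissues, with bars for the standard error, filled symbols for an adjusted p-value under 0.05 with a fold change over 1.5 and open symbols otherwise. LIPA on IR/CHT in the aortic valve lies farthest to the right at 4.91, all Lard symbols are open, and the filled symbol left of 0 is STARD4 on IR/CHT in the tricuspid valve.

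LIPA, the lysosomal acid lipase, had the largest change of the 8 genes in every comparison of CHT or IR/CHT with Ctrl in the aorta and the left-sided valves. In the aorta its level was 32.8, 39.7 and 46.5 CPM (lowest, median, highest) on Ctrl, 118, 195.6 and 239.4 CPM on CHT and 158.9, 253 and 440 CPM on IR/CHT. All CHT and IR/CHT libraries lay above all Ctrl libraries. The increase was 4.68-fold on CHT (log2 fold change 2.23 ± 0.21 SE, adjusted p = 1.31e-08) and 6.99-fold on IR/CHT (2.81 ± 0.21, adjusted p = 2.34e-10, edgeR).

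In the aortic valve LIPA was 7.40, 21.3 and 33.7 CPM on Ctrl, 108, 139 and 230 CPM on CHT and 383, 621 and 1223 CPM on IR/CHT. Here the 3 groups did not overlap at all, and each IR/CHT library exceeded each CHT library. CHT raised LIPA 7.32-fold (2.87 ± 0.30, adjusted p = 1.28e-07), IR/CHT 30.03-fold (4.91 ± 0.33, adjusted p = 6.14e-12), and the step from CHT to IR/CHT was 4.10-fold (2.04 ± 0.30, adjusted p = 3.48e-05, edgeR). Within plate 1 alone the log2 fold change of CHT was 2.99, and that of IR/CHT was 5.31 on plate 1 and 4.32 on plate 2. LIPA in the mitral valve was 19.9, 31.2 and 33.9 CPM on Ctrl, 61.0, 129 and 223 CPM on CHT and 150, 274.7 and 450 CPM on IR/CHT, again without overlap with Ctrl. The changes were 4.78-fold on CHT (2.26 ± 0.28, adjusted p = 4.62e-06) and 9.45-fold on IR/CHT (3.24 ± 0.28, adjusted p = 8.62e-09).

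Between CHT and IR/CHT the ranges of LIPA overlapped in the aorta and the mitral valve, and the differences of 0.58 ± 0.21 (adjusted p = 0.123) and 0.98 ± 0.26 (adjusted p = 0.0985) were not called by edgeR. In the aorta this turned on 1 library: without IR/CHT L579 both LIPA (0.68, adjusted p = 0.0424) and NPC2 (0.64, adjusted p = 0.0297) were called. Mitral LIPA was called in this comparison without IR/CHT L175 (1.09, adjusted p = 0.0274) or without CHT L157 (1.17, adjusted p = 0.0267). On the lard diet LIPA averaged 45.5 ± 8.58 CPM in the aorta, 27.0 ± 7.92 in the aortic valve and 26.9 ± 6.96 in the mitral valve, with ranges that overlapped those of Ctrl in all 3 tissues. Against CHT these levels were lower by 2.02, 2.57 and 2.36 on the log2 scale, that is 4.06-fold, 5.94-fold and 5.15-fold, with adjusted p-values of 4.79e-07, 5.37e-07 and 9.79e-07.

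NPC2 and NPC1 act in sequence in cholesterol export from the lysosome, and NPC2 responded more than NPC1. NPC2 in the aorta was 16.3, 22.1 and 33.3 CPM on Ctrl, 39.3, 52.5 and 60.7 CPM on CHT and 47.2, 68.0 and 115 CPM on IR/CHT. The Ctrl range lay below the ranges of both other groups. The log2 fold change was 1.17 ± 0.18 on CHT (adjusted p = 1.40e-05) and 1.72 ± 0.18 on IR/CHT (adjusted p = 1.53e-08). NPC2 in the aortic valve was 12.8, 18.9 and 23.8 CPM on Ctrl, 34.3, 48.2 and 73.1 CPM on CHT and 103, 117 and 166.6 CPM on IR/CHT. As for LIPA, the 3 ranges were separate. NPC2 rose 2.69-fold on CHT (1.43 ± 0.17, adjusted p = 6.23e-07) and 6.73-fold on IR/CHT (2.75 ± 0.17, adjusted p = 1.75e-12), with 2.50-fold between CHT and IR/CHT (1.32 ± 0.17, adjusted p = 7.81e-06).

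In the mitral valve NPC2 averaged 19.4 ± 1.83 CPM on Ctrl, 38.9 ± 10.7 on CHT and 63.7 ± 17.7 on IR/CHT, with all treated libraries above all Ctrl libraries. It rose by 0.99 ± 0.18 on CHT (adjusted p = 0.000642) and 1.68 ± 0.18 on IR/CHT (adjusted p = 1.68e-07, edgeR). The difference between CHT and IR/CHT of 0.69 ± 0.17 (adjusted p = 0.0875) was called without IR/CHT L175 (0.79), CHT L157 (0.76) or CHT L266 (0.82), by DESeq2 (0.71, adjusted p = 0.0181) and in 1 model of all 5 tissues (0.71, adjusted p = 0.0168). NPC1 in the aortic valve was 57.2, 63.2 and 75.7 CPM on Ctrl, 75.8, 102 and 117 CPM on CHT and 162, 195.7 and 280 CPM on IR/CHT. The lowest CHT library lay just above the highest Ctrl library, and all IR/CHT libraries lay above both groups.

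The rise of NPC1 in the aortic valve was 1.53-fold on CHT (0.61 ± 0.13, adjusted p = 0.00172), close to the fold of 1.5 that a call needed. Without Ctrl L150, CHT L169, CHT L151 or CHT L228 the log2 fold change was 0.57, 0.58, 0.55 and 0.57 and the call was lost, with adjusted p-values still under 0.05. It was lost too under DESeq2 (0.55), with the plate as a covariate (0.56) and in plate 1 alone, the plate with all CHT libraries of this valve (0.57, adjusted p = 0.0966). On IR/CHT the rise was 3.09-fold (1.63 ± 0.13, adjusted p = 9.54e-11), and IR/CHT exceeded CHT 2.03-fold (1.02 ± 0.13, adjusted p = 8.16e-06). Mitral NPC1 averaged 63.6 ± 8.39 CPM on Ctrl and 108 ± 26.0 on IR/CHT, with 6 of 7 IR/CHT libraries above all Ctrl libraries (0.72 ± 0.16, adjusted p = 0.00141). On CHT there it averaged 78.4 ± 19.99 CPM (0.29 ± 0.16, adjusted p = 0.391). In the aorta its log2 fold changes of 0.39 ± 0.14 on CHT (adjusted p = 0.0329) and 0.51 ± 0.13 on IR/CHT (adjusted p = 0.00233) passed the p-value but not the fold threshold.

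SOAT1, the esterifying enzyme of the endoplasmic reticulum, rose with LIPA and NPC2 on the cholesterol diet. Its level in the aortic valve was 8.42, 23.5 and 30.2 CPM on Ctrl, 33.4, 46.9 and 80.7 CPM on CHT and 68.0, 110 and 184.04 CPM on IR/CHT. The Ctrl range was separate from the others, and 6 of 7 IR/CHT libraries lay above all CHT libraries. SOAT1 rose 2.83-fold on CHT (1.502 ± 0.30, adjusted p = 0.000704), 6.40-fold on IR/CHT (2.68 ± 0.30, adjusted p = 4.19e-08) and 2.26-fold from CHT to IR/CHT (1.18 ± 0.30, adjusted p = 0.00511). In the aorta SOAT1 was 28.1, 35.4 and 46.5 CPM on Ctrl, 40.2, 53.9 and 71.0 CPM on CHT and 42.2, 66.4 and 81.0 CPM on IR/CHT. The groups overlapped at their edges, with 4 of 6 CHT and 6 of 7 IR/CHT libraries above all Ctrl libraries.

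The aortic increase of SOAT1 was 1.54-fold on CHT (0.62 ± 0.17, adjusted p = 0.00653) and 1.83-fold on IR/CHT (0.87 ± 0.16, adjusted p = 8.15e-05). The call on CHT was near the threshold of fold, and without Ctrl L552, Ctrl L570, CHT L572 or CHT L574 the log2 fold change was 0.57, 0.56, 0.52 and 0.58 and no longer called. Mitral SOAT1 averaged 31.4 ± 6.48 CPM on Ctrl, 48.6 ± 8.74 on CHT and 72.8 ± 20.5 on IR/CHT. In plate 2 alone the mitral changes on IR/CHT were not called for SOAT1 (0.82, adjusted p = 0.117) or NPC1 (0.70, adjusted p = 0.0786). With all libraries, on IR/CHT all 7 exceeded all Ctrl libraries (1.18 ± 0.19, adjusted p = 4.63e-05), while on CHT the same size of change as in the aorta, 0.62 ± 0.19, had an adjusted p of 0.0543. It was called without CHT L187 (0.69), CHT L245 (0.71) or Ctrl L278 (0.72) and by DESeq2 (0.64, adjusted p = 0.0291).

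STARD4, a cytosolic sterol carrier whose gene is known to be under the control of SREBP-2, rose in the aorta and the aortic valve and fell in the tricuspid valve. Aortic valve levels were 1.91, 3.84 and 7.54 CPM on Ctrl, 7.54, 10.99 and 15.7 CPM on CHT and 14.9, 21.5 and 25.7 CPM on IR/CHT. All CHT libraries lay above all Ctrl libraries, by little for the lowest, and 6 of 7 IR/CHT libraries lay above all CHT libraries. STARD4 rose 2.78-fold on CHT (1.48 ± 0.27, adjusted p = 0.000291), 5.31-fold on IR/CHT (2.41 ± 0.27, adjusted p = 3.94e-08) and 1.91-fold from CHT to IR/CHT (0.93 ± 0.27, adjusted p = 0.0122). In the aorta it averaged 5.94 ± 1.34 CPM on Ctrl, 10.2 ± 2.83 on CHT and 10.9 ± 4.16 on IR/CHT. The rise was 0.80 ± 0.25 on CHT (adjusted p = 0.0166), which without CHT L572 was 0.69 and not called (adjusted p = 0.0583), and 0.93 ± 0.24 on IR/CHT (adjusted p = 0.00235).

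In the tricuspid valve STARD4 was 3.37, 6.89 and 7.97 CPM on Ctrl, 1.92, 3.32 and 4.84 CPM on CHT, 3.95, 6.09 and 7.82 CPM on Lard and 1.42, 2.84 and 4.01 CPM on IR/CHT. Of the 7 IR/CHT libraries 6 were below all Ctrl libraries, and of the 6 CHT libraries 3 were. STARD4 was 2.21-fold lower on IR/CHT (-1.14 ± 0.23, adjusted p = 0.0167), and on CHT the change of -0.86 ± 0.23 was not called (adjusted p = 0.246). Without the 3 tricuspid libraries that stand apart both were called, at -1.13 (adjusted p = 0.00659) and -0.94 (adjusted p = 0.0381). The call on IR/CHT was lost with only the 2 groups in the model (-1.13, adjusted p = 0.164) and in plate 2 alone (-1.35, adjusted p = 1). Pulmonary valve STARD4 averaged 4.99 ± 1.01 CPM on Ctrl, 3.26 ± 1.15 on CHT and 2.63 ± 1.22 on IR/CHT, where the lowest library, L275, had 0.647 CPM. The log2 fold changes of -0.65 ± 0.31 on CHT (adjusted p = 0.495) and -0.92 ± 0.30 on IR/CHT (adjusted p = 0.142) were not called by edgeR, and DESeq2 called the second (-0.93, adjusted p = 0.045). Without the libraries that stand apart the second was -0.76 (adjusted p = 0.233, edgeR).

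STAR, the carrier best known from steroid-making cells, was present in all 5 tissues at group means between 5.89 and 18.3 CPM. The aortic valve had 4.58, 6.53 and 9.26 CPM on Ctrl, 8.44, 11.6 and 13.3 CPM on CHT and 12.0, 17.1 and 23.3 CPM on IR/CHT. Of the 6 CHT libraries 5 lay above all Ctrl libraries, and the IR/CHT range was separate from Ctrl. STAR rose 1.75-fold on CHT (0.80 ± 0.20, adjusted p = 0.00655), 2.83-fold on IR/CHT (1.503 ± 0.20, adjusted p = 4.60e-07) and 1.62-fold from CHT to IR/CHT (0.70 ± 0.20, adjusted p = 0.0120). With the plate as a covariate the rise on CHT was 0.60 and lost the call (adjusted p = 0.0778), and within plate 1 it was 0.75.

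In the aorta STAR was called on IR/CHT (0.68 ± 0.16, adjusted p = 0.000910), while on CHT 0.54 ± 0.17 (adjusted p = 0.0156) was under the fold threshold and passed it without Ctrl L568 (0.62), CHT L559 (0.59) or CHT L560 (0.60). In the mitral valve the same held for IR/CHT, with 0.55 ± 0.20 (adjusted p = 0.0398), and STAR was called there without IR/CHT L175 (0.63), IR/CHT L179 (0.62), Ctrl L183 (0.59) or Ctrl L278 (0.64), and with all libraries by DESeq2 (0.59, adjusted p = 0.0172), with DESeq2 size factors (0.59, adjusted p = 0.0294) and with no filter (0.60, adjusted p = 0.0435). The mitral STARD4 value on IR/CHT, 0.69 ± 0.27 (adjusted p = 0.0554), was called without IR/CHT L175 (0.79), IR/CHT L548 (0.75) or Ctrl L278 (0.94), and by DESeq2 (0.73, adjusted p = 0.0315).

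STARD3, which tethers late endosomes to the endoplasmic reticulum, and STARD5, a cytosolic START protein, were called in 0 of 25 treatment comparisons each. STARD3 in the aortic valve ranged from 19.5 to 86.0 CPM over the 7 Ctrl libraries, the widest range of the 4 groups there, and averaged 27.6 ± 11.9 CPM on CHT (-0.74 ± 0.32, adjusted p = 0.123). STARD5 there averaged 19.8 ± 7.36 CPM on Ctrl, 13.7 ± 4.36 on CHT (-0.52 ± 0.22, adjusted p = 0.119) and 14.0 ± 2.27 on IR/CHT (-0.50 ± 0.21, adjusted p = 0.0546). Both estimates were below 0 while those of the other 6 genes were above. Without CHT L151 the change on CHT was called for STARD3 (-0.95, adjusted p = 0.0485) and STARD5 (-0.70, adjusted p = 0.0324), and with all libraries in 1 model of 5 tissues it was called for STARD3 (-0.75, adjusted p = 0.0298). In the mitral valve STARD3 averaged 25.7 ± 4.12 CPM on Ctrl and 35.4 ± 5.19 on IR/CHT, a change of 0.43 ± 0.15 that was under the fold threshold (adjusted p = 0.0337).

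In the right-sided valves LIPA, NPC2, NPC1 and SOAT1 were called in 0 of 10 treatment comparisons each by edgeR and by DESeq2. LIPA in the pulmonary valve was 34.9, 43.1 and 50.04 CPM on Ctrl, 47.8, 52.6 and 67.6 CPM on CHT and 30.7, 65.2 and 78.4 CPM on IR/CHT. Of the 7 IR/CHT libraries 6 lay above all Ctrl libraries and 1, L275, lay below all of them. The change on IR/CHT was 0.52 ± 0.14 (adjusted p = 0.0678). Without L275, the pulmonary library closest to the aortic valve, it was 0.63 and called (adjusted p = 0.000579), and without both pulmonary libraries that stand apart it was 0.63 as well (adjusted p = 0.000479, edgeR). In the tricuspid valve LIPA averaged 39.5 ± 9.60 CPM on Ctrl, 47.7 ± 7.44 on CHT and 48.8 ± 12.2 on IR/CHT, and the changes of 0.27 ± 0.17 (adjusted p = 0.623) and 0.31 ± 0.16 (adjusted p = 0.651) were not called. NPC2 in the pulmonary valve averaged 23.1 ± 1.95 CPM on Ctrl and 28.8 ± 4.43 on IR/CHT (0.32 ± 0.12, adjusted p = 0.208), and in the tricuspid valve 20.9 ± 2.14 and 25.2 ± 4.35 CPM (0.26 ± 0.12, adjusted p = 0.587).

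Whether the responses differed between tissues was tested directly, as the difference of 2 log2 fold changes against Ctrl in 1 model of all libraries, called at an adjusted p under 0.05. On the cholesterol diet alone the response of the aortic valve differed from that of the aorta in 1 of the genes and from that of the mitral valve in none called by edgeR, and each right-sided valve had lower log2 fold changes than its left-sided counterpart in some. Between the aortic valve and the aorta 1 of 8 genes differed on CHT (10.3% of all genes), SOAT1, whose response was larger in the valve by 0.90 ± 0.28 (adjusted p = 0.0257). This was lost with the plate as a covariate (0.77, adjusted p = 0.0678) and, in an alternative chosen after the data were seen, with only the libraries of these tissues in the model (0.83, adjusted p = 0.116). Between the mitral and the aortic valve 0 of 8 differed on CHT (0% of all genes), with 3 at an unadjusted p under 0.05 and 0 by DESeq2. The pulmonary valve had lower log2 fold changes than the aortic valve in 5 of 8 genes (5.11% of all genes), by -2.53 ± 0.32 for LIPA (adjusted p = 3.69e-09), -2.08 ± 0.38 for STARD4 and -1.56 ± 0.28 for SOAT1. The tricuspid valve responded less than the mitral valve in LIPA, by -1.998 ± 0.33 (adjusted p = 1.27e-05), and NPC2, by -0.81 ± 0.22 (adjusted p = 0.0277), 2 of 8 genes (2.2% of all genes). Without the libraries that stand apart NPC2 was -0.75 (adjusted p = 0.0674) and not called, and STARD4 was -1.27 and called (adjusted p = 0.0434). With the rabbit as a block STARD4 was called too (-1.35, adjusted p = 0.0218).

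With irradiation the response of the aortic valve differed from those of the aorta and of the mitral and pulmonary valve in most of the genes. The tricuspid valve was compared with the mitral valve alone. The response to IR/CHT was larger in the aortic valve than in the aorta for 6 of 8 genes (36.7% of all genes), by 2.17 ± 0.31 for LIPA (adjusted p = 1.23e-08), 1.87 ± 0.27 for SOAT1 (adjusted p = 1.57e-08) and 1.55 ± 0.36 for STARD4 (adjusted p = 0.000376). It was smaller in the mitral than in the aortic valve for the same 6 genes (18.8% of all genes), from -0.88 ± 0.19 for NPC1 to -1.70 ± 0.37 for STARD4, with -1.65 ± 0.31 for LIPA. The pulmonary valve differed from the aortic valve in these 6 genes (40.8% of all genes), by -4.41 ± 0.32 for LIPA (adjusted p = 1.54e-22) and -3.34 ± 0.37 for STARD4. DESeq2 called 8 of 8 there, with STARD3 (0.91, adjusted p = 0.0407) and STARD5 (0.84, adjusted p = 0.0399) higher in the pulmonary valve. The tricuspid valve had lower log2 fold changes than the mitral valve in LIPA (-2.97 ± 0.32), STARD4 (-1.86 ± 0.38), NPC2, SOAT1 and NPC1, 5 of 8 genes (8.21% of all genes). For STARD4 the signs were opposite, at -1.14 in the tricuspid valve (called) and 0.69 in the mitral valve (not called, adjusted p = 0.0554). With the rabbit as a block STAR joined them (-0.68, adjusted p = 0.0341), as it did without the libraries that stand apart (-0.72, adjusted p = 0.0407). STARD5 was not among the genes called between the aortic valve and the aorta (-0.73 ± 0.33, adjusted p = 0.0729), but was with the rabbit as a block (-0.75, adjusted p = 0.0325), under DESeq2 (-0.87, adjusted p = 0.0350), with only these tissues in the model (-0.93, adjusted p = 0.00691) and without the libraries that stand apart (-0.83, adjusted p = 0.0149). These comparisons share libraries of the aortic and mitral valve, and all aorta libraries were on 1 plate.

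**Figure D3:**
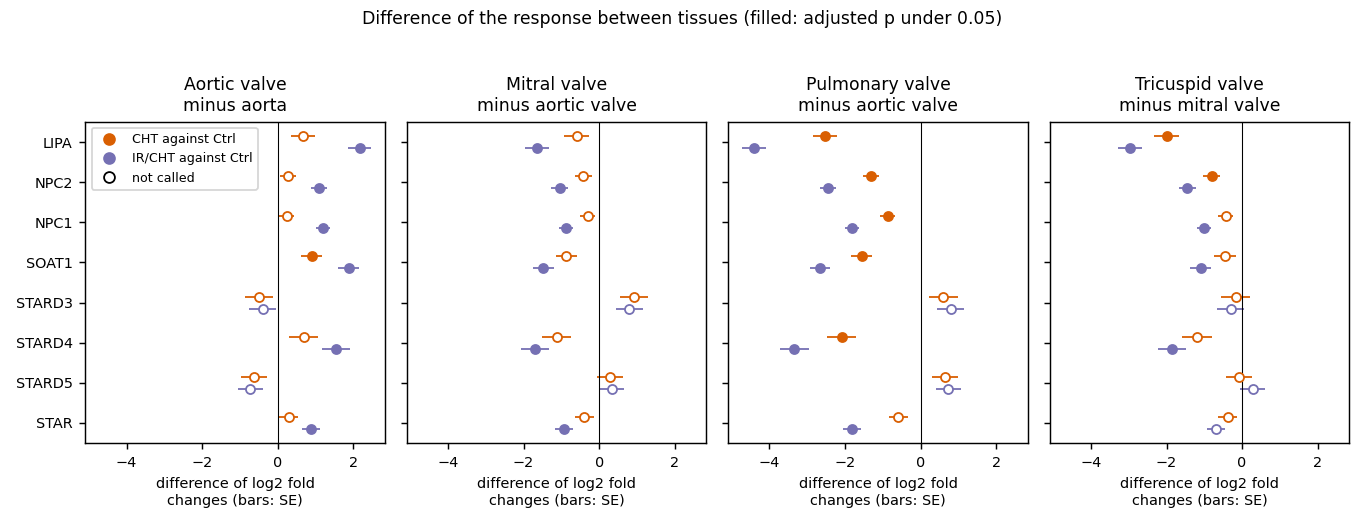
Difference of the log2 fold changes against Ctrl between 2 tissues for each gene, on CHT and IR/CHT (colours), with bars for the standard error and filled symbols for an adjusted p-value under 0.05. On IR/CHT the 6 genes LIPA, NPC2, NPC1, SOAT1, STARD4 and STAR lie right of 0 for the aortic valve minus the aorta and left of 0 for the mitral and pulmonary valve minus the aortic valve, and STARD3 and STARD5 do the opposite with open symbols.

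Without any diet, the tissues differed most in the START genes STARD3 and STARD5. STARD5 on Ctrl averaged 19.8 ± 7.36 CPM in the aortic and 15.3 ± 3.51 in the mitral valve, 8.998 ± 6.70 in the tricuspid valve, 7.65 ± 1.54 in the aorta and 6.05 ± 0.759 in the pulmonary valve. The aortic and mitral valves were not called as different from each other, nor the mitral and tricuspid valves, though the latter were with the rabbit as a block (-0.99, adjusted p = 0.00981) and without tricuspid L168 (-1.26, adjusted p = 0.000105). The 3 lower tissues were not called as different among themselves. STARD5 was 2.59-fold higher in the aortic valve than in the aorta (1.37 ± 0.27, adjusted p = 9.70e-05) and 3.29-fold lower in the pulmonary than in the aortic valve (-1.72 ± 0.28, adjusted p = 3.82e-05). STARD3 averaged 46.4 ± 26.1 CPM in the aortic valve, 32.5 ± 8.02 in the aorta, 25.9 ± 14.4 in the tricuspid valve, 25.7 ± 4.12 in the mitral valve and 13.0 ± 2.05 in the pulmonary valve. The pulmonary valve was lower than each of the other 4 tissues, 3.60-fold against the aortic valve (-1.85 ± 0.30, adjusted p = 3.93e-05), 2.53-fold against the aorta (-1.34 ± 0.29, adjusted p = 0.000376), 1.996-fold against the mitral valve (-0.997 ± 0.30, adjusted p = 0.0156) and by 1.01 on the log2 scale against the tricuspid valve (adjusted p = 0.0195). The last difference was 0.71 and not called (adjusted p = 0.119) without tricuspid L168.

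LIPA and SOAT1 on Ctrl were lowest in the aortic valve. LIPA averaged 43.4 ± 5.24 CPM in the pulmonary valve, 39.7 ± 5.47 in the aorta, 39.5 ± 9.60 in the tricuspid valve, 28.8 ± 5.69 in the mitral valve and 21.8 ± 9.04 in the aortic valve. The first 3 were not called as different from one another, nor was the mitral valve from the aorta, the tricuspid valve or the aortic valve. SOAT1 averaged 36.0 ± 6.68 CPM in the aorta, 31.9 ± 8.80 in the tricuspid valve, 31.4 ± 6.48 in the mitral and 29.9 ± 2.69 in the pulmonary valve, and 18.7 ± 8.67 in the aortic valve, where 3 of 7 libraries lay between 8.42 and 12.8 CPM. These 3, L150, L166 and L261, were also the 3 with the highest STARD3, between 65.3 and 86.0 CPM. Against the aorta the aortic valve was lower by 0.94 ± 0.23 for SOAT1 (adjusted p = 0.00105), by 0.86 ± 0.21 for LIPA (adjusted p = 0.00107) and by 0.61 ± 0.25 for STARD4 (adjusted p = 0.0347), the last lost under DESeq2 (adjusted p = 0.0533), with DESeq2 size factors (adjusted p = 0.0557), with no filter (adjusted p = 0.0800), with the plate as a covariate (adjusted p = 0.0649) and without tricuspid L168 in the model (adjusted p = 0.0535). Without L168 STARD3 was called as higher in the aortic valve than in the aorta (0.64, adjusted p = 0.0390, against 0.51 with all libraries). NPC1, NPC2 and STAR were called in 0 of 10 pairs of tissues.

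Over the pairs of tissues on Ctrl, 4 of 8 genes were called between aortic valve and aorta (49.6% of all genes), 1 between mitral valve and aorta (31%), 1 between pulmonary valve and aorta (37.5%) and 0 between tricuspid valve and aorta (30.2%, with 1 at an unadjusted p under 0.05 and 0 by DESeq2). Between valves, 4 were called for pulmonary against aortic (48.2% of all genes), 5 for tricuspid against aortic (38.2%), 3 for pulmonary against mitral (22.2%) and 1 for tricuspid against pulmonary (10.7%). For mitral against aortic 0 were called (2.75%), with 3 at an unadjusted p under 0.05, 3 by DESeq2 and 2 with the rabbit as a block (STARD4, 0.73, adjusted p = 0.0342, and SOAT1, 0.72, adjusted p = 0.0410). For tricuspid against mitral 0 were called (5.33%), with 2 at an unadjusted p under 0.05 and 0 by DESeq2, and STARD5 was called with the rabbit as a block and without tricuspid L168, as given above. Of these calls, STARD4 for tricuspid against aortic was lost under DESeq2 (a 1.495-fold difference, under the fold threshold), with DESeq2 size factors (1.497-fold) and with no filter (adjusted p = 0.0556), and LIPA for pulmonary against mitral with no filter (adjusted p = 0.0528). Heart muscle and smooth muscle markers differed between tissues too, and their part in these differences was not tested.

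Other genes of the pathway were read from lists, each set beside the share of all tested genes called in the same direction. On CHT that share was 14.2% higher and 5.18% lower for the aorta, 8.42% higher and 3.48% lower for the aortic valve, 4.98% and 0.64% for the mitral valve, 0.0484% and 0.111% in the pulmonary valve and 0.0816% and 0.0816% in the tricuspid valve. On IR/CHT 22.2%, 21.1%, 11.1%, 0.581% and 0.109% of all genes were called higher in these tissues in turn. Lysosomal genes rose in the same tissues as LIPA. On CHT 22 of 28 tested were called higher in the aorta, 18 of 28 in the aortic valve and 14 of 28 in the mitral valve, and 0 of 28 in the pulmonary and 0 of 27 in the tricuspid valve, by edgeR. Among them were CTSS, a cysteine protease of antigen-presenting cells, which rose by 4.30 ± 0.37 in the aorta (adjusted p = 3.29e-09), and GPNMB, a glycoprotein of phagocytes and pigment cells, by 7.26 ± 0.42 in the aortic valve (adjusted p = 4.61e-12) and 5.91 ± 0.44 in the mitral valve (adjusted p = 1.14e-09). On IR/CHT 24, 25 and 23 of 28 were higher in the aorta, aortic and mitral valve, 1 of 28 in the pulmonary and 0 of 27 in the tricuspid valve.

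Of the genes of sterol transfer by other proteins, 2 of 21 were higher on CHT in the aorta, where 14.2% of all genes were: GRAMD1B, a sterol carrier at contacts of the endoplasmic reticulum with the plasma membrane (2.03 ± 0.33, adjusted p = 2.99e-05), and CETP, the gene of the plasma transfer protein, at a mean of 0.00907 CPM on Ctrl and 0.925 CPM on CHT. In the aortic valve 1 of 20 was higher, beside 8.42% of all genes, SCARB2, a lysosomal membrane protein (0.64 ± 0.21, adjusted p = 0.0385), and in the mitral, pulmonary and tricuspid valves 0. Of the genes of ester hydrolysis and lipid droplets, the droplet coat protein PLIN2 rose in the aorta (1.51 ± 0.19, adjusted p = 1.27e-06), the aortic valve (1.71 ± 0.23, adjusted p = 5.08e-06) and the mitral valve (1.27 ± 0.17, adjusted p = 2.02e-05). The whole list had 3 higher and 1 lower of 14 in the aorta, 1 higher and 2 lower of 12 in the aortic valve and 1 higher of 14 in the mitral valve, with 0 called in the right-sided valves. SOAT2, the other cholesterol-esterifying enzyme of this kind, fell by 2.198 ± 0.56 on the log2 scale in the aortic valve (adjusted p = 0.00813). Of the genes of steroid and oxysterol metabolism, CYP7B1, an oxysterol hydroxylase of the endoplasmic reticulum, rose in the aorta (1.14 ± 0.30, adjusted p = 0.00552), 1 of 4 tested, and CYP27A1, a mitochondrial sterol hydroxylase, fell by 0.71 ± 0.22 in the aortic valve (adjusted p = 0.0341), 1 of 5 tested, with 0 of 5 called in each of the other valves.

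Sterol-regulated genes changed on both sides of the heart. Targets of SREBP-2, the factor that is shut off by excess sterol, were lower on CHT in 13 of 17 tested in the aorta, 14 of 17 in the aortic and in the mitral valve and 10 of 17 in the pulmonary and in the tricuspid valve, with 0 higher. Of all genes 5.18%, 3.48%, 0.64%, 0.111% and 0.0816% were called lower in these tissues in turn. SQLE, an enzyme of cholesterol synthesis, fell by 1.81 ± 0.22 in the aorta, 2.44 ± 0.18 in the mitral and by 2.05 ± 0.26 and 2.02 ± 0.26 in the pulmonary and tricuspid valve on the log2 scale. STARD4 rose in aorta and aortic valve, and its change on CHT in the tricuspid valve was -0.86 ± 0.23 and not called (adjusted p = 0.246). LXR targets and efflux genes were higher in 5 of 9 in the aorta, the aortic and the mitral valve, 2 of 8 in the pulmonary and 3 of 9 in the tricuspid valve, beside 14.2%, 8.42%, 4.98%, 0.0484% and 0.0816% of all genes. ABCA1, the exporter of cholesterol to apolipoproteins, rose by 3.83 ± 0.19, 3.91 ± 0.29, 3.77 ± 0.25, 2.47 ± 0.15 and 2.69 ± 0.21 in these tissues in turn. Of the genes of lipoprotein uptake 6 of 12 were higher in the aorta, 5 of 12 in the aortic and in the mitral valve, and 0 in the pulmonary (of 12) and tricuspid valve (of 11). MSR1, a scavenger receptor that the macrophage list holds too, was among the higher ones in the aorta (5.56 ± 0.57) and in the aortic (3.00 ± 0.31) and mitral valve (2.21 ± 0.35).

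Markers of macrophages were higher on CHT in the tissues where LIPA and NPC2 rose. The list held 18 genes, of which 17 were measured. In the aorta their summed level on Ctrl, CHT and IR/CHT was 373 ± 68.3, 1369 ± 387 and 2022 ± 641 CPM. The left-sided valves had 560 ± 152.2, 1416 ± 220 and 3518 ± 393 CPM (aortic) and 513 ± 234.2, 1190 ± 297 and 1794 ± 408 CPM (mitral). In the aorta it ranged from 305 to 460 CPM on Ctrl, 770 to 1713 on CHT and 1146 to 3234 on IR/CHT, in the aortic valve from 260.6 to 727, 1073 to 1618 and 3023 to 3972, and in the mitral valve from 294 to 763, 791 to 1563 and 1100 to 2240. In the pulmonary valve the sum was 719 ± 66.6, 775 ± 111 and 854 ± 232.6 CPM and in the tricuspid valve 711 ± 90.3, 750 ± 125 and 906 ± 197.2 CPM. On CHT 14 of 17 markers were called higher in the aorta, 10 of 17 in the aortic and 13 of 17 in the mitral valve, beside 14.2%, 8.42% and 4.98% of all genes called higher, and 0 in the right-sided valves. On Lard the sum was 567.6 ± 133.9 CPM in the aorta (377 to 746), where 9 of 17 markers were called higher than on Ctrl (2.57% of all genes), while SOAT1 averaged 28.6 CPM against 36.0 on Ctrl, LIPA 45.5 against 39.7 and NPC2 26.8 against 23.3, none of them called. For the aortic and mitral valve the sum on Lard was 401 ± 224 and 549.2 ± 229.6 CPM, with 0 of 17 markers called in each. The defining markers CD68, CSF1R and MSR1 were above 0 in the mean of every group. CD68 rose from 26.4 CPM on Ctrl to 205 on CHT and 717 on IR/CHT in the aortic valve, while CD163 was at 47.0, 43.2 and 40.9 CPM there. The part of these cells in the changes of the 8 genes was not tested.

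**Figure D4:**
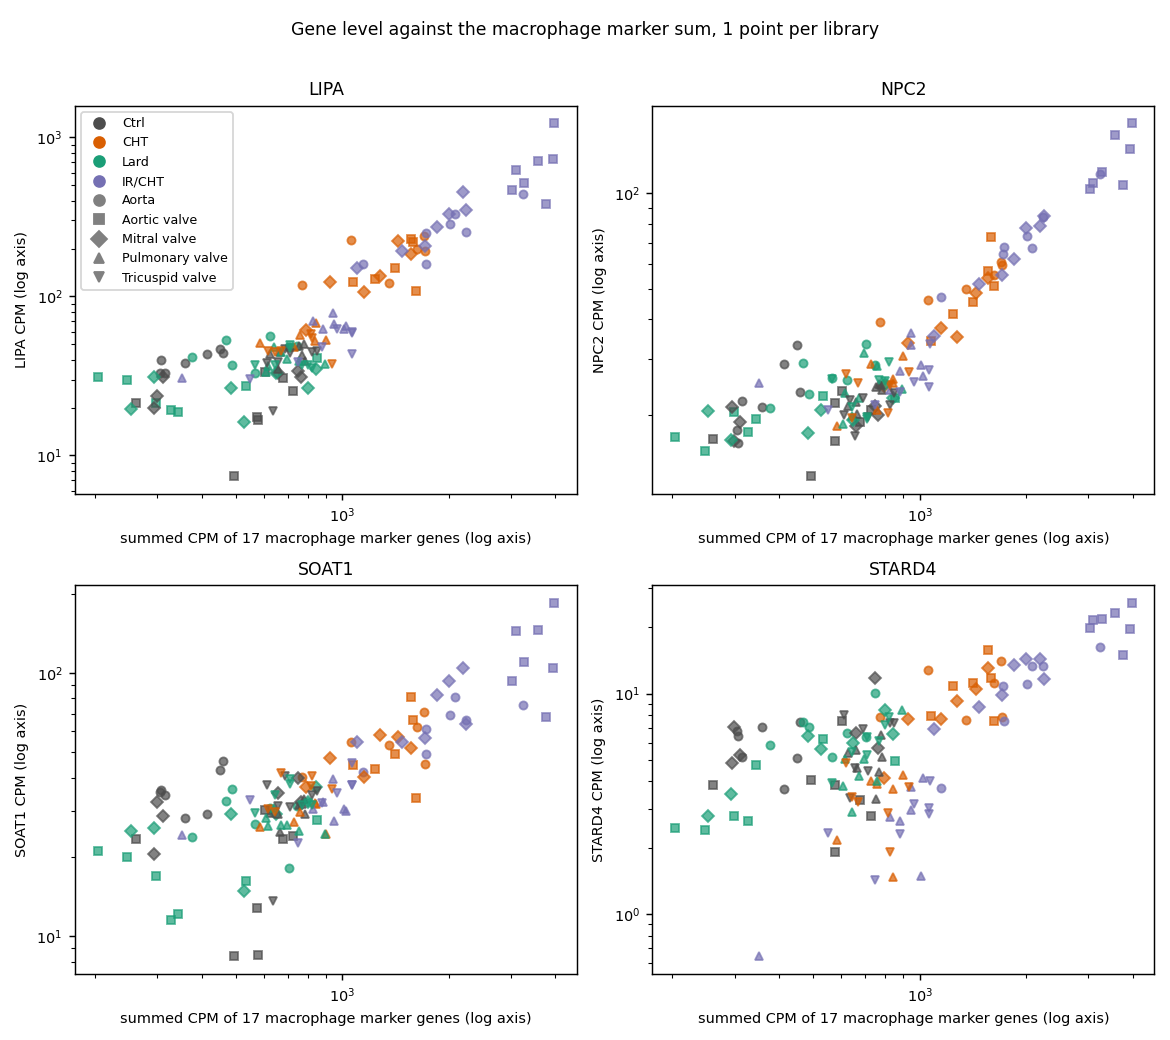
Level of LIPA, NPC2, SOAT1 and STARD4 in CPM against the summed CPM of 17 macrophage marker genes, both on log axes, with 1 point per library, colours for treatments and shapes for tissues. IR/CHT libraries of the aortic valve lie at the upper right with sums between 3023 and 3972 CPM and LIPA levels between 383 and 1223 CPM.

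Over the 27 libraries of the aorta, 27 of the aortic and 26 of the mitral valve, the Pearson correlation of log2 levels with this sum was 0.97, 0.95 and 0.90 for NPC2 and 0.95, 0.92 and 0.90 for LIPA. In the pulmonary and tricuspid valve it was 0.51 and 0.53 for NPC2 and 0.71 and 0.54 for LIPA, over 27 libraries each, and without the libraries that stand apart 0.69 and 0.62 for NPC2 and 0.64 and 0.55 for LIPA (25 and 24 libraries). The libraries share treatments, rabbits and plates, so that these values are descriptions. Within single treatments, NPC2 and the macrophage sum had correlations of 0.98 on CHT and 0.98 on IR/CHT in the aorta (6 and 7 libraries), 0.94 and 0.98 in the mitral valve, and 0.87 and 0.70 in the aortic valve. On Ctrl and Lard the values for NPC2 were 0.82 and 0.74 in the aorta, 0.36 and 0.61 in the mitral and 0.41 and 0.83 in the aortic valve. For LIPA they were 0.56 on CHT and 0.87 on IR/CHT in the aorta, 0.89 and 0.94 in the mitral valve and 0.46 and 0.50 in the aortic valve. On Ctrl and Lard LIPA had 0.87 and 0.31 in the aorta, 0.76 and 0.38 in the mitral and 0.24 and 0.40 in the aortic valve. SOAT1 had 0.78, 0.88 and 0.86 over all libraries of the aorta, the aortic and the mitral valve. Within the treatments Ctrl, CHT, Lard and IR/CHT it had 0.42, 0.63, -0.17 and 0.83 in the aorta, 0.0059, 0.30, 0.30 and 0.10 in the aortic and 0.71, 0.75, 0.38 and 0.68 in the mitral valve. Over all treatments STARD3 and STARD5 had correlations of 0.096 and 0.21 in the aorta, 0.10 and -0.37 for aortic valve libraries and 0.53 and -0.40 for those of the mitral valve. Markers of other cell types changed too. On CHT 7 of 8 endothelial markers were called higher and 3 of 6 smooth muscle markers lower in the aorta, beside 14.2% of all genes higher and 5.18% lower, where the smooth muscle sum went from 101744 CPM on Ctrl to 57643 on CHT and 34227 on IR/CHT. In the aortic valve 8 of 10 heart muscle markers were lower on CHT (3.48% of all genes) and 9 of 10 on IR/CHT (21.7%), with sums from 194.9 to 12692 CPM on Ctrl, 14.6 to 365 on CHT and 27.1 to 267.9 on IR/CHT. Of 9 T cell markers 3 were measured, with sums of 0.575, 2.84 and 15.5 CPM on Ctrl, CHT and IR/CHT in the aortic valve, where 1 of 3 was called higher on CHT and 3 of 3 on IR/CHT. Of 6 B cell markers 3 were measured and had sums of 8.30, 7.35 and 41.1 CPM there, with 1 of 2 tested called higher on CHT. On IR/CHT 1 of these 2 was higher and 1 lower. Of 12 neutrophil markers 5 were tested there, with 1 higher on CHT and 2 on IR/CHT. All 6 tested proliferation genes were higher on CHT in aorta and aortic valve alike. The part of these markers in the changes of the 8 genes was not tested either.

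Among themselves, LIPA, NPC2 and SOAT1 varied together where the diet changed them. The correlation of NPC2 with LIPA was 0.95 in the aorta, 0.98 in the aortic valve and 0.95 in the mitral valve, but 0.42 in the pulmonary and 0.19 in the tricuspid valve. That of SOAT1 with LIPA was 0.86, 0.97, 0.93, 0.59 and 0.76 in these tissues in turn. STARD3 and STARD5 went together in the aortic valve (0.78), the pulmonary valve (0.63), the aorta (0.54) and the tricuspid valve (0.50), though not in the mitral valve (0.04). Without the libraries that stand apart NPC2 and LIPA had 0.39 in the pulmonary and 0.22 in the tricuspid valve (25 and 24 libraries), SOAT1 and LIPA 0.55 and 0.51, and STARD3 and STARD5 0.41 and 0.22. STARD5 and SOAT1 had negative correlations, with -0.62 in the aortic, -0.55 in the mitral and -0.55 in the pulmonary valve and -0.30 in the aorta. In the tricuspid valve the value was -0.65 with all libraries and -0.26 without L168, L272 and L197, and in the pulmonary valve it was -0.52 without L271 and L275. The values with all libraries are over 26 or 27 libraries of a tissue, which share treatments and rabbits.

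The pattern of each gene over the 20 group means was compared with that of 10891 genes by Pearson correlation of mean log2 levels. PLIN2 was the gene most like both NPC2 (0.9958) and LIPA (0.9875). NPC2 was followed by ATP6V1H, a subunit of the proton pump of lysosomes (0.9879), and the lysosomal peptidase gene TPP1 (0.9876), and LIPA by NPC2 (0.9865) and CTSS (0.9861). For the others the first 3 were STX4, EAF1 and PACC1 with NPC1 (0.9712, 0.9653 and 0.9616), LACTB, BLM and AKR1A1 with SOAT1 (0.9636, 0.9542 and 0.9531), ADAMTS7, GYS1 and GCDH with STARD3 (0.9578, 0.9560 and 0.9535) and TRNT1, MTA2 and PACC1 with STARD4 (0.9524, 0.9295 and 0.9107). STARD5 had GTF3C1, RUNDC1 and ANKS3 (0.9803, 0.9694 and 0.9680), and STAR had SF3B5, SLC11A2 and ATP6V1A, the last another pump subunit (0.9597, 0.9544 and 0.9467). By rank correlation the first gene stayed TRNT1 for STARD4 and GTF3C1 for STARD5, NPC2 and LIPA were each other's first (0.9774), and none of the first 3 was shared for STAR, STARD3 and NPC1.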

How the data were processed

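The authors sequenced stranded total RNA libraries (SMARTer Stranded Pico v2) and ran the nf-core/rnaseq pipeline against OryCun2.0 with Ensembl genes, and they deposited raw counts per gene and library. Base calls were made with bcl2fastq 2.20 per the submitters' processing notes. The kit keeps strand, and the pipeline ran with its default settings apart from those for trimming, with no strand option among the changes, so that reads of overlapping antisense genes may not be told apart. Groups came from the labels, and each rabbit gave at most 1 library per tissue. The 8 genes and all lists were chosen with earlier results of these data known.

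From the deposited counts, edgeR 4.0.16 in R 4.3.3 (TMM scaling, filterByExpr, quasi-likelihood test, 1 model per tissue with the 4 treatments) gave log2 fold changes and Benjamini-Hochberg adjusted p-values over all genes tested. The standard errors were computed from the log2 fold change and the F statistic of that test. Log2 levels of genes in the correlations were taken with a prior count of 2. Calls needed an adjusted p under 0.05 and a fold over 1.5, and differences of response between tissues the adjusted p alone. CPM were computed here on the scaled library sizes. Tissues on Ctrl and differences of response were tested in models of several tissues without a rabbit term, and with the rabbit as a block as an alternative. The rabbit of each library is not in its title and was inferred from the start of its column name in the deposited counts. Deviations from the group means had a median correlation of 0.4388 between the aortic and mitral libraries of a rabbit, against -0.0143 between rabbits. For aorta and aortic valve it was 0.2007 against -0.0040. DESeq2 1.42.0, its size factors, no filter, 2 groups alone, 1 model of 5 tissues, the plate as a covariate, single plates and leaving out each library were tried as alternatives. Leaving out the 5 libraries that stand apart, also from the correlations, and using only the tissues compared were added after the data were seen. Scripts were tested on simulated data. Named are the 8 genes, at most 3 called genes of each pathway list with the smallest p on CHT, markers beside a result and the 3 genes most like each of the 8. In the models of 1 tissue the p-values measure the spread between rabbits. Models of several tissues without a rabbit term treat libraries of the same rabbit as independent. Their p-values mix the spread between rabbits with that within a rabbit. The result of 1 gene of the lists is not reported here.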

Additional observations from a re-analysis of the deposited data

Results flagged for a closer look

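In 14 of the 160 sets of libraries of 1 gene, tissue and treatment, the highest or lowest library stood far from the rest by Dixon's criterion, in 11 libraries, and chance gives such a gap in about 1 in 20 sets. In the aorta STARD3 was 48.0 CPM in Ctrl L552. Aortic valve STARD4 was 7.54 CPM in Ctrl L277 and LIPA was 1223 CPM in IR/CHT L236. Mitral STARD3 was 33.8 CPM in Ctrl L262 and STARD4 was 11.8 CPM in Ctrl L278. Pulmonary STARD4 was 8.41 CPM in Lard L541, and IR/CHT L275 had STARD5 at 14.7 and LIPA at 30.7 CPM. In the tricuspid valve Ctrl L168 had STARD5 at 23.9, SOAT1 at 13.6 and LIPA at 19.1 CPM, STARD5 was 17.4 CPM in CHT L172, NPC1 was 80.0 CPM in Lard L546 and STARD3 was 60.9 CPM in IR/CHT L197. L275, L168 and L197 are among the 5 libraries closest to another tissue by more than 0.01 in correlation, and L277 and L262 were closest to another tissue by less.

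Of 64 differences of response between tissues 31 passed the test. On CHT the aortic valve minus the aorta gave 0.90 for SOAT1. The pulmonary minus the aortic valve gave -2.08 for STARD4, -0.87 for NPC1, -1.31 for NPC2, -1.56 for SOAT1 and -2.53 for LIPA. The tricuspid minus the mitral valve gave -0.81 for NPC2 and -1.998 for LIPA. On IR/CHT the aortic valve minus the aorta gave 0.88 for STAR, 1.55 for STARD4, 1.19 for NPC1, 1.09 for NPC2, 1.87 for SOAT1 and 2.17 for LIPA. The mitral minus the aortic valve gave -0.93 for STAR, -1.70 for STARD4, -0.88 for NPC1, -1.05 for NPC2, -1.48 for SOAT1 and -1.65 for LIPA. The pulmonary minus the aortic valve gave -1.81 for STAR, -3.34 for STARD4, -1.81 for NPC1, -2.45 for NPC2, -2.66 for SOAT1 and -4.41 for LIPA. The tricuspid minus the mitral valve gave -1.86 for STARD4, -1.01 for NPC1, -1.45 for NPC2, -1.09 for SOAT1 and -2.97 for LIPA.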

How the results depend on the processing

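No value that was called, in the main fit or under an alternative, changed its sign. Some estimates that were not called did change sign when 1 library was left out. For CHT against Ctrl in the tricuspid valve the log2 fold change then ranged from -0.85 to 0.17 for STARD5 and from -0.34 to 0.28 for STARD3. Of 46 treatment calls 36 held under every alternative other than leaving out 1 library and 34 under all. Of 31 differences of response 29 held, and of 19 differences between tissues on Ctrl 15, under the alternatives run for them, which did not include leaving out 1 library. The following counts of called genes moved by over 1.5 times, and the cause was not tested, beyond that single plates hold fewer libraries. With plate 1 alone they were 3 for Lard against CHT in the aortic valve, 1 for Lard against CHT in the mitral valve and 1 for IR/CHT against Ctrl in the pulmonary valve. With plate 2 alone they were 2 for IR/CHT against Ctrl in the mitral valve and 0 in the tricuspid valve. Over all genes the calls went from 2715 to 1115 and from 34 to 0. DESeq2 gave 2 for IR/CHT against CHT in the mitral valve, 1 for IR/CHT against Ctrl and 1 against CHT in the pulmonary valve, and 3 for mitral against aortic valve on Ctrl. Over all genes it called 149, 318, 466 and 1522 in turn, in place of 29, 102, 11 and 423. With 1 model of 5 tissues IR/CHT against CHT in the mitral valve gave 2, and with only the groups compared IR/CHT against Ctrl in the tricuspid valve gave 0. Over all genes the calls were 31 in place of 29, and 21 in place of 34. For the response to CHT, aortic valve minus aorta gave 0 with the plate as a covariate and 0 with only these tissues, and tricuspid minus mitral valve gave 1 with no filter. Over all genes the calls were 1169 and 854 in place of 1761, and 321 in place of 375. Without the 5 libraries that stand apart the counts were 1 for IR/CHT against Ctrl in the pulmonary valve, 1 for CHT against Ctrl in the tricuspid valve, and on Ctrl 3 for mitral against aortic, 1 for tricuspid against mitral and 0 for tricuspid against pulmonary valve. Over all genes these calls went, in turn, from 102 to 131, 24 to 51, 423 to 2418, 820 to 3862 and 1647 to 1332.

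With the rabbit as a replicate block, mitral against aortic valve on Ctrl gave 2 and tricuspid against mitral valve 1, and STARD4, STARD5 and STAR were each called in 1 more difference of response. It changed no other call. Within a tissue each rabbit gave 1 library, so that the treatment comparisons have no pairs.

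Leaving out 1 library gave counts from 2 to 5 for CHT against Ctrl and 0 to 2 for IR/CHT against CHT in the aorta, 5 to 7 for CHT against Ctrl and 5 to 6 for Lard against CHT in the aortic valve, and 0 to 1 for IR/CHT against Ctrl in the pulmonary valve. Calls over all genes moved too. For CHT against Ctrl in the aorta, 2863 became 2311 where 2 of the 8 were called, and 2727 to 3046 where 5 were. For IR/CHT against CHT there, 88 became 661 without L579. In the aortic valve on CHT, 1833 became 2628 without CHT L151, and in the pulmonary valve 102 became 123 without L275. In the mitral valve they were 2 to 3 for CHT against Ctrl, 4 to 6 for IR/CHT against Ctrl, 0 to 2 for IR/CHT against CHT and 3 to 4 for Lard against CHT. Depth limits STARD4 most, at 10 counts in the lowest library.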
